A study of Mus musculus with 12 samples.

Results

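The ligands Fgf1, Fgf21 and Fgf15, the receptors Fgfr1, Fgfr2, Fgfr3 and Fgfr4 and the co-receptor Klb (beta-klotho) were followed by RNA-seq in liver and duodenum of mice given corticosterone (CORT) or vehicle (Veh). These 8 genes were chosen by name, 1 row each, from the 55416 genes listed in each tissue's table. Male C57BL6/J mice, 8 weeks old at the start, received CORT (the main glucocorticoid of rodents) subcutaneously at 40 mg/kg or vehicle (a mixture of DMSO, Tween-80 and water) every day for 8 weeks. Each of the 4 groups (liver Veh, liver CORT, duodenum Veh, duodenum CORT) held 3 libraries from 50 mg pieces of whole tissue, 12 libraries in all. The labels mark the libraries as biological replicates but do not say whether a liver and a duodenum library came from the same mouse.

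Fgf21 and mouse Fgf15 (the counterpart of human FGF19) are endocrine FGFs, which bind heparan sulfate weakly, enter the circulation and signal through an FGF receptor paired with beta-klotho. In the classical circuit, bile acids induce Fgf15 in the ileum through the nuclear receptor FXR, and Fgf15 acts on hepatocyte Fgfr4 and Klb to repress bile acid synthesis. Fgf21 comes mostly from the liver and is known as a target of PPAR-alpha in fasting and of ATF4 in stress, whereas Fgf1 is a paracrine FGF that can bind all FGF receptors.

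In the livers of CORT-treated mice, both hepatic ligands rose: Fgf1 by 3.62-fold in mean level and Fgf21 from under 4 TPM in every Veh library to between 6.58 and 50.3 TPM. The receptor Fgfr1 fell in the same livers. Fgfr4, the main hepatocyte receptor, was at 0.482 times its Veh mean with no overlap between groups but did not pass the adjusted test. In the duodenum none of the 5 members that could be tested passed, and Fgf15 was listed at 0 in all 12 libraries of both tissues.

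The values are TPM (transcript abundances scaled for transcript length and to nearly the same total in each library), which do not keep the read depth. Responses are differences of the group means of log2(TPM + 1), CORT minus Veh, with the standard error (SE) and 95% interval from limma. The added 1 shrinks the changes of weakly expressed genes. A gene was called when limma's adjusted p, taken over all genes tested in that tissue, was 0.05 or less and the fold change on this scale exceeded 1.5. With 3 libraries a group, the smallest two-sided p of an exact permutation test on one gene is 0.1.

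The treatment was visible in both tissues through Fkbp5, a glucocorticoid-induced gene, whose response was 4.23 (SE 0.32, limma adjusted p = 0.00178) in liver and 4.30 (SE 0.34, adjusted p = 0.00450) in duodenum. Tsc22d3, another such gene, was called in the duodenum (2.01, adjusted p = 0.0185) but not in liver (1.92, adjusted p = 0.0623). The 8 hepatocyte markers summed to between 63556 and 103055 TPM in the liver libraries, with Alb at their head. The 8 absorptive enterocyte markers, all detected, summed to between 15801 and 21532 TPM in Veh duodenum and between 27359 and 31205 TPM in CORT. Apoa4 alone averaged 9591 TPM in Veh and 19837 TPM in CORT. Of the 8, 4 had higher and 4 lower responses, with 0 called by limma and 2 at an unadjusted p under 0.05. The 7 duodenal smooth muscle markers all had lower responses, with 0 called and 4 at an unadjusted p under 0.05. The part of this makeup in the duodenal member values was not tested. The 2 ileal markers, Slc10a2 and Fabp6, summed to under 1 TPM in every duodenum library. In the duodenum, Veh2 and Veh3 stood apart: 22 markers of pancreatic acinar cells summed to 39537 and 31523 TPM there, against 184 TPM in Veh1 and 145 to 322 TPM in the CORT libraries. Of the 20 acinar markers tested, all had lower CORT means, 0 were called by limma and 19 had an unadjusted p under 0.05. The 3 with the highest level were Ctrb1, Cela2a and Prss2, digestive enzyme precursors. The responses of the duodenal members are therefore also given without Veh2 and Veh3.

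**Figure D1:**
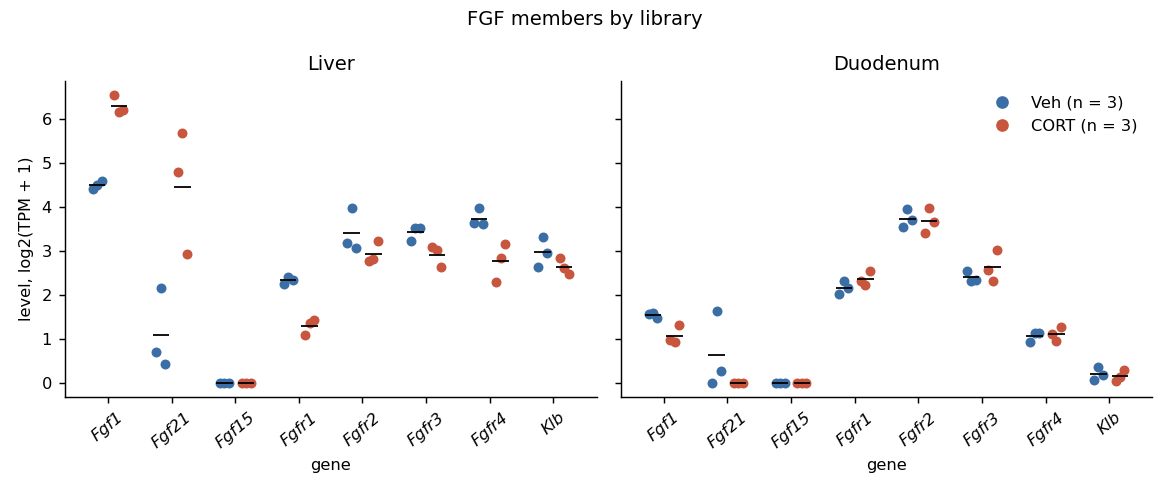
Level of each member in each library as log2(TPM + 1), liver on the left and duodenum on the right, with 3 Veh points (blue) and 3 CORT points (red) per gene and a black line at the mean. Liver Fgf1 and Fgf21 sit higher and liver Fgfr1, Fgfr3 and Fgfr4 lower in CORT with no overlap, while in the duodenum only Fgf1 separates the groups.

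In liver, 7 of the 8 members averaged 1 TPM or more in Veh or CORT and were tested. Fgf1 and Fgf21 were called higher, that is 2 of 7, where 4.91% of all 11699 genes tested were called higher. Fgfr1 was called lower, 1 of 7, where the background was 2.01%. In either direction 3 of 7 were called against 6.92% of all genes. The study itself singled out Fgf1 and Fgf21 from these same libraries, so their direction here is not independent evidence. It also reported both as raised in CORT livers by quantitative real-time PCR, a separate assay. In 5 of the 7 the groups were fully separate, as they were in 32.2% of all genes tested. The median response of the 7 was -0.47, and that of all genes tested was 0.08.

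Fgf1 was at 20.4, 21.7 and 23.3 TPM in the Veh livers and at 92.6, 70.8 and 72.8 TPM in the CORT livers. Every CORT library lay more than 3 times above every Veh library, and the Veh libraries differed little among themselves. The means were 21.8 ± 1.45 TPM in Veh and 78.7 ± 12.03 TPM in CORT (SD, n = 3 each), a response of 1.80 on the log2 scale (SE 0.14, 95% interval 1.46 to 2.14, limma adjusted p = 0.00197). It passed with each library left out in turn, with responses from 1.68 to 1.87. In bulk tissue, more cells of a type and more RNA per cell cannot be told apart, here or below.

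Fgf1 was also the most abundant member in liver under both treatments, and its range did not touch that of the next member. The 3 genes whose centred log2(TPM + 1) values over the 6 liver libraries came nearest to those of Fgf1 were Aifm2, Atl2 and Tead1. The root mean square difference from Fgf1 was 0.12 on the log2 scale for each. Aifm2 encodes a coenzyme Q oxidoreductase that limits lipid peroxidation, Atl2 an endoplasmic reticulum membrane GTPase, and Tead1 a transcription factor of the Hippo pathway. Aifm2, picked for its likeness to Fgf1, ran from 10.9 to 13.7 TPM in Veh and from 39.0 to 54.1 TPM in CORT, without overlap.

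Fgf21 was at 0.62, 3.49 and 0.34 TPM in the Veh livers and at 26.7, 50.3 and 6.58 TPM in the CORT livers. All CORT libraries lay above all Veh libraries, but CORT3 was far below the other CORT libraries and Veh2 far above the other Veh libraries. The means were 1.48 ± 1.74 TPM and 27.9 ± 21.9 TPM (SD, n = 3 each), a ratio of 18.8. The response was 3.37 (SE 0.74, 95% interval 1.61 to 5.13, limma adjusted p = 0.0434). This call is near the threshold: it was lost without CORT1, CORT2, Veh1 or Veh3 (adjusted p = 0.128, 0.0939, 0.123 and 0.137), with responses of 3.21, 2.76, 3.17 and 3.03. In Veh livers Fgf21 was the lowest of the members detected, while in CORT livers it was second to Fgf1, with its lowest value inside the ranges of Fgfr2, Fgfr3 and Fgfr4.

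The 250 bases upstream of the Fgf21 start are shown because Fgf21 had the largest response of the members, beside those of Fgfr4, the liver receptor gene nearest to the threshold on the lower side. Both come from RefSeq on GRCm38.p6, where 5 of the 8 members had a promoter entry, and the coordinates belong to that build, whereas the TPM tables were made on GRCm39. The Fgf21 stretch is chr7:45615491-45615740 on the minus strand and the Fgfr4 stretch is chr13:55152568-55152817 on the plus strand. Capitals mark matches, on either strand, to any of 4 motifs: the C/EBP-ATF element TGATGNAA, the E-box CACGTG, the glucocorticoid receptor half-site AGAACA and the nuclear receptor half-site AGGTCA.
Fgf21: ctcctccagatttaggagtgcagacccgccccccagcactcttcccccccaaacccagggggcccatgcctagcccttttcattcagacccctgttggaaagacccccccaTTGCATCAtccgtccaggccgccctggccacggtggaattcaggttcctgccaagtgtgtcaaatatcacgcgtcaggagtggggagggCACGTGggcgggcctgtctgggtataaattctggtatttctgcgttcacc
Fgfr4: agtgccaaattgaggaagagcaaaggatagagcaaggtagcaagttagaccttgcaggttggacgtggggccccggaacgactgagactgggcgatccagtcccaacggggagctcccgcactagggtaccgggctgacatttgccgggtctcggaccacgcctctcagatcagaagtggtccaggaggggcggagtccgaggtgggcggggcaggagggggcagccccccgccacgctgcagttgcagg
The Fgf21 stretch held 1 C/EBP-ATF element, read as TTGCATCA from 139 to 132 bases before the start, and 1 E-box from 50 to 45 bases before it, and the 2 matches do not overlap. The element is in 3.45% and the E-box in 6.02% of the 32851 promoter windows of the same length. Neither half-site was matched in either stretch, where 16.1% of windows hold AGAACA and 14.0% hold AGGTCA. A match is a run of letters, not a measured binding site, and the absence of one says only that these letters are not in this window.

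Of 16 factors known to act on Fgf21, 15 were tested in liver, with 2 called higher and 1 lower (4.91% and 2.01% of all genes), a median response of 0.26 against 0.08 for all genes. Ddit3, which had more than 1 row in the table, was left out of these counts. Its rows differed in liver response minus duodenal response: 2.26 (limma adjusted p = 0.00127) in one and -0.15 (adjusted p = 0.891) in the other. Creb3l3, a liver-enriched CREB family factor, ran from 134 to 156 TPM in Veh and from 229 to 318 TPM in CORT, a response of 0.96 (SE 0.16, limma adjusted p = 0.0192). Nfil3, a bZIP repressor, rose by 1.64 (SE 0.32, adjusted p = 0.0303), and Nr1d1, the circadian repressor REV-ERB-alpha, fell by 1.93 (SE 0.25, adjusted p = 0.00907).

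The best-known upstream factors of Fgf21 were not called in liver. Ppara was at 36.5, 58.2 and 34.1 TPM in Veh and 84.4, 76.9 and 60.1 TPM in CORT, without overlap but with Veh2 close to CORT3, a response of 0.79 (SE 0.23, limma adjusted p = 0.0894). Atf4 responded by 0.06 (SE 0.14, adjusted p = 0.832) with overlapping values between 41.6 and 54.1 TPM. Nr3c1, the glucocorticoid receptor gene, responded by -0.01 (SE 0.17, adjusted p = 0.972). The study itself reported a significant decrease of Nr3c1 in CORT livers by quantitative PCR, and this difference was not tested. Transcript levels of a factor do not measure its activity.

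Among targets of PPAR-alpha, the fatty acid-sensing nuclear receptor, 3 of 15 tested in liver were called higher and 0 lower, where 4.91% of all genes were called higher, with a median response of 1.06. Cyp4a14, a fatty acid omega-hydroxylase, ran at 0.8, 8.15 and 1.86 TPM in Veh and 1284, 815 and 123 TPM in CORT, a response of 7.13 (SE 0.94, limma adjusted p = 0.00922). Cyp4a10, of the same enzyme family, rose by 4.74 (SE 0.62, adjusted p = 0.00892) and Acot1, an acyl-CoA thioesterase, by 3.30 (SE 0.44, adjusted p = 0.00939). The Cyp4a and Acot genes each have near-identical copies, so the split of reads among them is uncertain. In 15 of these 15 genes CORT3 was the lowest of the 3 CORT livers, as it was for Fgf21, while CORT3 was the lowest in 36.6% of all genes tested. Without CORT3, 9 of the 15 were called, where 522 of all 11617 genes tested were. Leaving out their lowest CORT library raises these responses by construction, so this count is only a description. Without Veh2 5 were called, where 831 of all 11589 genes tested were.

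The genes nearest to Fgf21 over the liver libraries were Apoa4, Crat and Cidec, with root mean square differences of 0.48, 0.58 and 0.67 on the log2 scale. Apoa4, an apolipoprotein of triglyceride-rich particles, ran at 76.2, 172 and 117 TPM in Veh and 2691, 3840.0 and 555 TPM in CORT, so that both its highest Veh library and its lowest CORT library were those of Fgf21. Crat, carnitine acetyltransferase, responded by 2.63 (limma adjusted p = 0.0196) and Cidec, a lipid droplet protein, by 3.37 (adjusted p = 0.0607), which was not called. These genes were picked for their likeness to Fgf21, so that likeness is a description.

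**Figure D2:**
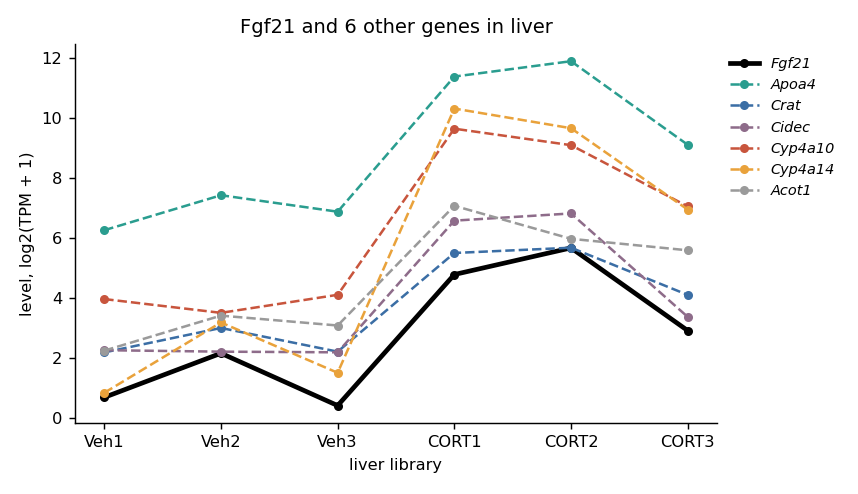
Levels in the 6 liver libraries, as log2(TPM + 1), of Fgf21 (black), its 3 nearest genes (Apoa4, Crat, Cidec) and the 3 called targets of PPAR-alpha (Cyp4a10, Cyp4a14, Acot1). Lines only link the points of one gene, since replicates have no order; all 7 genes are lowest in CORT3 among the CORT livers.

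Targets of ATF4, the integrated stress response factor, gave 1 higher call and 0 lower calls among 11 tested in liver, where 4.91% of all genes were called higher, with a median response of 0.32. The called gene was Sesn2, a stress-induced regulator of mTORC1 signalling, which ran from 2.00 to 2.27 TPM in Veh and from 4.06 to 4.53 TPM in CORT (0.77, SE 0.13, limma adjusted p = 0.0224). The median response of this list, 0.32, compares with 0.08 for all genes tested and 1.06 for the PPAR-alpha list.

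Fgfr1 was the member called lower in liver. This receptor, which with beta-klotho is the main receptor complex for Fgf21 in adipose tissue and brain, was at 3.76, 4.32 and 4.08 TPM in Veh and 1.13, 1.58 and 1.68 TPM in CORT. The groups lay well apart, and each was narrow. The means were 4.05 ± 0.281 and 1.46 ± 0.293 TPM (SD, n = 3 each), a response of -1.04 (SE 0.16, 95% interval -1.42 to -0.67, limma adjusted p = 0.0148). The call was lost without CORT1, Veh1 or Veh3 (adjusted p = 0.0621, 0.0502 and 0.0655), where the response was -0.94, -1.08 and -1.04.

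Hepatocytes carry little Fgfr1 compared with other cells of the liver, so markers of those cells are given beside it. The 7 endothelial markers summed to between 10.6 and 24.7 TPM in Veh and between 38.4 and 48.8 TPM in CORT. Of them 3 of 7 were called higher, where 4.91% of all genes tested in liver were. The 10 fibroblast and stellate cell markers summed to between 65.3 and 186 TPM in Veh and between 145 and 184 TPM in CORT. Dcn alone ran from 41.6 to 116 TPM in Veh and from 103 to 143 TPM in CORT. Of the 10, 0 were called by limma and 3 had an unadjusted p under 0.05. Of these 3, Col3a1 was lower (-0.76) while Pdgfra (0.73) and Hgf (0.75) were higher. At that p with a fold change over 1.5, 1808 of all 11699 genes tested in liver passed. No marker of either list was at 0 in all libraries. The part of cell makeup in the Fgfr1 value was not tested. The genes nearest to Fgfr1 were Irf7 and Ifit1, both interferon-response genes, and Eef2k, the kinase of elongation factor 2. Their root mean square differences were 0.09, 0.09 and 0.10, and this likeness, for which they were picked, is a description.

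Fgfr4, the hepatocyte receptor for Fgf15, was at 11.4, 14.7 and 11.3 TPM in Veh and 3.89, 6.17 and 7.97 TPM in CORT. The groups did not overlap, and CORT1 was the lowest and CORT3 the highest of the CORT livers. The means were 12.5 ± 1.96 and 6.01 ± 2.04 TPM (SD, n = 3 each), a response of -0.98 (SE 0.24, 95% interval -1.54 to -0.41, limma adjusted p = 0.0564), so it missed the threshold. Under median-ratio scaling of the libraries it passed (response -1.06, adjusted p = 0.0335), and it also passed without CORT3 (-1.18, adjusted p = 0.0427). That scaling lowers the median response of all genes by 0.08 and changes the liver calls from 575 higher and 235 lower to 550 higher and 466 lower.

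Klb, which pairs with Fgfr4 and Fgfr1, was at 5.26, 8.93 and 6.77 TPM in Veh and 6.17, 5.16 and 4.57 TPM in CORT. The groups overlapped, with a response of -0.32 (SE 0.20, 95% interval -0.80 to 0.15, limma adjusted p = 0.354). It was -0.15 without Veh2 and -0.49 without Veh1. Fgfr4 and Klb are found mainly in hepatocytes. Their 8 markers summed to between 63556 and 103055 TPM in Veh and between 78296 and 84263 TPM in CORT, with overlap. Alb alone ran from 32822.7 to 59475.5 TPM across the liver libraries. Limma called 0 of 8, and 3 had an unadjusted p under 0.05. Of these 3, Ahsg was lower (-0.70) while Cps1 (0.43) and Tat (1.21) were higher.

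Fgfr3 was at 8.31, 10.4 and 10.6 TPM in Veh and 7.48, 7.10 and 5.20 TPM in CORT, without overlap, a response of -0.51 (SE 0.17, 95% interval -0.92 to -0.11, limma adjusted p = 0.118). Fgfr2 was at 8.02, 14.7 and 7.45 TPM in Veh and 5.81, 6.05 and 8.35 TPM in CORT. Its groups overlapped and Veh2 alone raised the Veh mean, the response being -0.47 (SE 0.26, 95% interval -1.10 to 0.15, adjusted p = 0.306) and -0.19 without Veh2. All 4 receptors thus had lower mean levels in CORT livers, under both scalings, although Fgfr1 alone was called under the first.

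The 4 receptors together summed to 31.5, 44.2 and 33.4 TPM in the Veh livers and 18.3, 20.9 and 23.2 TPM in the CORT livers. Fgfr4 made up between 33.3% and 36.2% of this sum in Veh and 21.2% to 34.4% in CORT, so these shares overlapped. The share of Fgfr1 was between 9.76% and 12.2% in Veh and between 6.17% and 7.56% in CORT. In the order of levels in the Veh livers, the range of Fgfr4 overlapped that of Fgfr2, Fgfr2 that of Fgfr3, and Fgfr3 that of Klb, with Fgfr1 below them. In the CORT livers the order by mean was Fgfr2, Fgfr3, Fgfr4, Klb and Fgfr1, and only Fgfr1 lay outside the range of its neighbour.

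**Figure D3:**
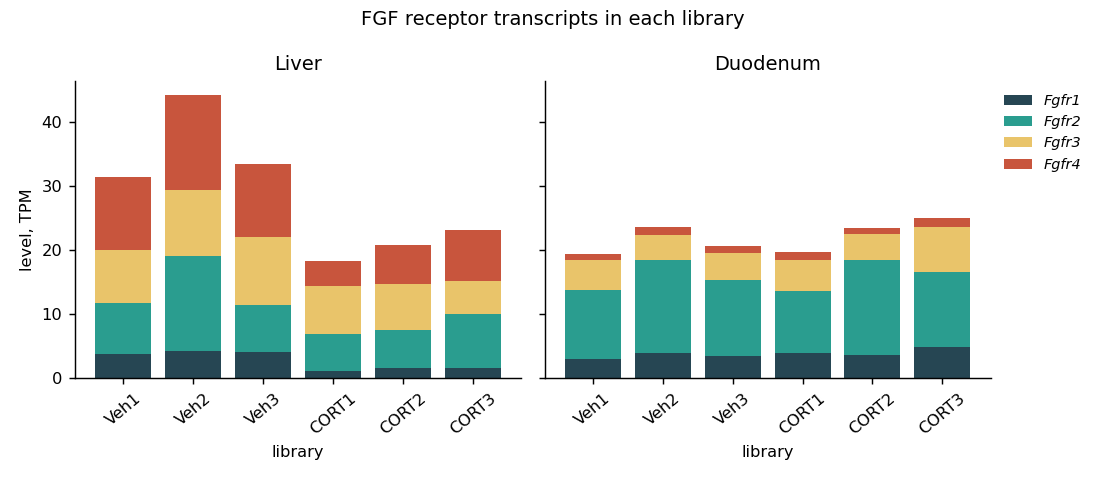
Stacked levels, in TPM, of Fgfr1, Fgfr2, Fgfr3 and Fgfr4 in each library of liver (left) and duodenum (right). The 3 CORT livers sum to between 18.3 and 23.2 TPM, below the 3 Veh livers, and Fgfr2 is the largest part in every duodenum library.

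The other genes of the FGF pathway in liver are read against 4.91% of all genes called higher and 2.01% called lower. Of the other 19 FGF ligands none reached a mean of 1 TPM in either group, and 11 were listed at 0 in every liver library. Of 16 co-receptors and FGF-binding proteins 7 were tested, and Sdc2, a heparan sulfate proteoglycan, was called lower (from between 48.4 and 52.5 TPM to between 29.7 and 34.2 TPM, response -0.61, limma adjusted p = 0.0300), a call lost whichever library was left out. Kl, alpha-klotho, stood at or under 0.02 TPM. Of 21 signal transduction genes 2 were called higher and 0 lower, with a median response of 0.15: Pik3r1, the regulatory subunit of PI3-kinase (1.12, adjusted p = 0.00552), and Ptpn11, the phosphatase SHP2 (0.65, adjusted p = 0.0470).

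Targets and feedback inhibitors of the FGF-ERK pathway gave 0 higher and 2 lower calls among 13 tested in liver, where 2.01% of all genes were called lower, with a median response of -0.27. Both called genes are immediate-early genes that many stimuli induce. Egr1 was at 69.8, 28.7 and 17.9 TPM in Veh and 0.62, 1.59 and 4.65 TPM in CORT, well apart (-3.57, SE 0.59, limma adjusted p = 0.0185), and Ier2 fell by 1.11 (SE 0.17, adjusted p = 0.0164). The more specific FGF readouts were not called: Spry4, a feedback inhibitor, responded by -0.22 (SE 0.28, adjusted p = 0.653), Dusp6, an ERK phosphatase, by -0.47 (SE 0.45, adjusted p = 0.540) and Etv5, an ETS factor, by -0.27 (SE 0.23, adjusted p = 0.490).

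Bile acid synthesis genes downstream of Fgfr4 and Klb were listed together with nuclear receptors and transporters as controls. This list of 10 gave 1 higher and 0 lower calls in liver, where 4.91% of all genes were called higher. Its median response was -0.02. Cyp7a1, the rate-limiting enzyme, was at 26.7, 31.8 and 19.1 TPM in Veh and 6.94, 8.80 and 15.7 TPM in CORT, without overlap, a response of -1.27 (SE 0.31, limma adjusted p = 0.0555) that missed the threshold. Cyp27a1, which opens the alternative pathway, rose by 0.92 (SE 0.15, adjusted p = 0.0182). Cyp8b1, the sterol 12-alpha-hydroxylase, varied from 33.1 to 206 TPM with overlapping groups (0.29, SE 0.80, adjusted p = 0.847). Nr0b2 (SHP), a repressor of these enzymes, was not called (-0.76, SE 0.44, adjusted p = 0.329) and was at 90.5 TPM in Veh1 but near 27 TPM in the other Veh livers. Nr1h4 (FXR) was not called either (0.16, SE 0.17, adjusted p = 0.597).

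In the duodenum, Fgf1, Fgfr1, Fgfr2, Fgfr3 and Fgfr4 were tested among 13607 genes, and Fgf21, Klb and Fgf15 were too low. Limma called 0 of 5, where 2.15% of all genes were called, and 1 of 5, Fgf1, had an unadjusted p under 0.05. The groups were fully separate in 1 of 5, against 26.4% of all genes. The median response of the 5 was 0.05, and that of all genes was -0.01. With Veh2 and Veh3 left out, which leaves 1 Veh library whose spread is taken from the CORT group, 0 of 5 were called as well, and all-gene calls fell to 10.

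Fgf1 was at 1.96, 2.03 and 1.77 TPM in the Veh duodenum and 0.97, 0.89 and 1.48 TPM in the CORT duodenum. Each CORT library lay below each Veh library, the opposite order to that in liver. The response was -0.48 (SE 0.19, 95% interval -0.92 to -0.03, limma adjusted p = 0.228), and it was -0.50 without Veh2 and Veh3. In the order of levels, Fgf1 at 1.92 ± 0.135 TPM (SD, n = 3) lay between Fgfr1 and Fgfr4 in Veh without touching either, and its range overlapped that of Fgfr4 in CORT. The tables of the tissues were made apart, so levels are not compared between them.

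Fgf21 was listed at 0 in Veh1 and in all CORT libraries of the duodenum, and at 2.12 TPM in Veh2 and 0.20 TPM in Veh3. The only libraries above 0 were those with the high acinar marker sums, and the exocrine pancreas is itself known to express Fgf21. The part of acinar RNA in these values was not tested, and no fold is given against a group listed at 0. Fgf15 was listed at 0 throughout, in the same libraries in which the ileal markers Slc10a2 and Fabp6 did not exceed 0.60 and 0.73 TPM, respectively. Fgf15 is a product of the ileum, and these data do not bear on it there.

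**Figure D4:**
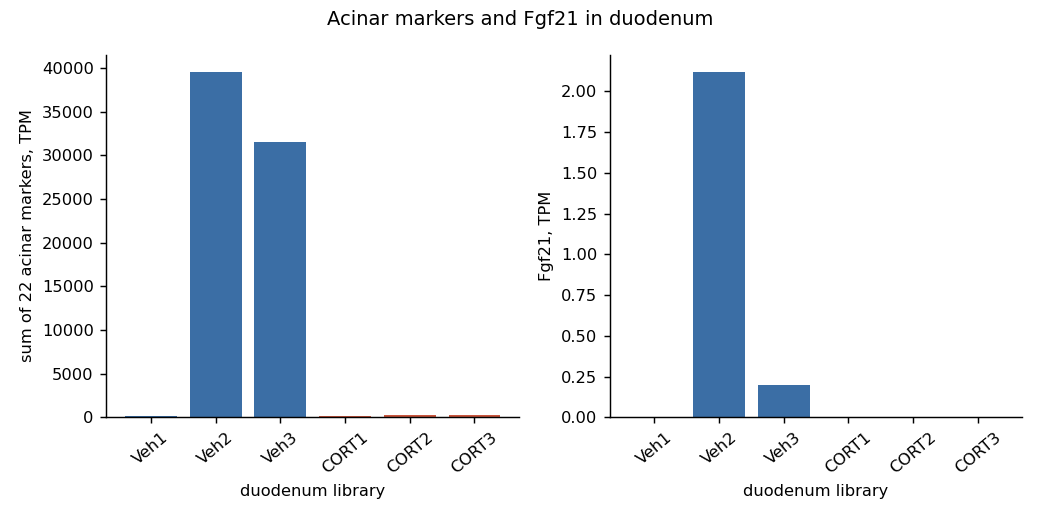
Summed level of 22 pancreatic acinar markers (left) and level of Fgf21 (right), both in TPM, in each duodenum library, with Veh in blue and CORT in red. Veh2 and Veh3 alone show high acinar sums (39537 and 31523 TPM) and Fgf21 above 0.

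Fgfr2, which in epithelia serves mainly the paracrine FGFs, was the most abundant duodenal receptor, at 10.7, 14.5 and 11.98 TPM in Veh and 9.62, 14.9 and 11.7 TPM in CORT. These values overlapped throughout (-0.05, SE 0.19, 95% interval -0.49 to 0.40, limma adjusted p = 0.919), and the sign turned to 0.14 without Veh2 and Veh3, and also without Veh2 or CORT1 alone (0.07 and 0.09). Fgfr3 was at 4.82, 3.97 and 4.09 TPM in Veh and 4.95, 3.97 and 7.11 TPM in CORT (0.23, SE 0.20, 95% interval -0.24 to 0.71, adjusted p = 0.557). Its groups overlapped, with CORT3 the highest, and the response was 0.09 without Veh2 and Veh3 and between 0.04 and 0.40 with one library left out.

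Fgfr1 was at 3.07, 3.95 and 3.46 TPM in the Veh duodenum and 3.98, 3.67 and 4.87 TPM in the CORT duodenum, with overlap (0.20, SE 0.16, 95% interval -0.17 to 0.57, limma adjusted p = 0.518, and 0.34 without Veh2 and Veh3). Fgfr4 was at 0.91, 1.18 and 1.20 TPM in Veh and 1.15, 0.94 and 1.42 TPM in CORT, with overlap (0.05, SE 0.19, 95% interval -0.41 to 0.50, adjusted p = 0.918, and 0.18 without Veh2 and Veh3). Klb did not exceed 0.28 TPM in any duodenum library. Fgfr2 made up between 46.6% and 63.4% of the summed receptors and Fgfr4 between 4.01% and 5.84%. In the order of levels Fgfr2 lay above Fgfr3 without overlap in both groups, Fgfr3 and Fgfr1 overlapped in CORT only, and Fgfr4 was the lowest receptor.

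Of the other FGF ligands 3 of 19 reached the level for a test in the duodenum and 0 were called by limma, also with unadjusted p-values under 0.05 and the same limit on fold change. Sdc1, the main epithelial syndecan, was the 1 called gene of 10 tested co-receptors and binding proteins, at 36.3, 38.8 and 38.4 TPM in Veh and 23.2, 19.3 and 25.0 TPM in CORT (-0.73, SE 0.13, limma adjusted p = 0.0462), where 0.919% of all genes were called lower, and this call too was lost whichever library was left out. None of 21 signal transduction genes and none of 17 FGF-ERK targets was called. With unadjusted p-values under 0.05 and the same limit on fold change, 0 and 1 were. Spry4 responded by -0.02 (adjusted p = 0.966), Dusp6 by 0.46 (adjusted p = 0.321) and Etv5 by -0.23 (adjusted p = 0.623). Kl did not exceed 0.15 TPM.

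Of the targets of PPAR-alpha 13 were tested in the duodenum, 4 were called higher, 0 lower and 9 did not pass, where 1.23% of all genes were called higher, with a median response of 0.76. Pdk4, which restrains glucose oxidation, rose by 3.03, Acot1 by 3.11 and Angptl4, an inhibitor of lipoprotein lipase, by 3.50 (limma adjusted p = 0.00809, 0.0110 and 0.0434). Ppara itself rose by 1.21 (SE 0.19, adjusted p = 0.0329), and Nr1d1 fell by 2.13 (SE 0.27, adjusted p = 0.0189), among 14 tested factors known to act on Fgf21. Atf4 (0.16, adjusted p = 0.514) and Nr3c1 (-0.11, adjusted p = 0.859) were not called, nor was any of 11 ATF4 targets, of which 0 passed with unadjusted p-values under 0.05 and the same limit on fold change. Without Veh2 and Veh3 limma called 0 genes of either list, with 1 Veh library left.

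Of 11 genes of the bile acid and FXR circuit upstream of Fgf15, 9 were tested in the duodenum and 1 was called higher. Of all genes tested there, 1.23% were called higher. Nr0b2, an FXR target, was at 5.92, 8.78 and 7.10 TPM in Veh and 20.9, 22.5 and 15.9 TPM in CORT, without overlap (1.33, SE 0.19, limma adjusted p = 0.0253). Nr1h4 was not called (0.51, SE 0.15, adjusted p = 0.139). In the hepatic bile acid list, which shares Nr0b2, Cyp27a1 rose by 2.42 in the duodenum (SE 0.31, adjusted p = 0.0189), while Cyp7a1 was listed at 0 and Cyp8b1 did not exceed 0.30 TPM there. Among the 7 genes of the FXR list tested in liver, Hnf4a, a master factor of hepatocyte and enterocyte genes, was called higher (0.86, SE 0.15, adjusted p = 0.0211). In liver 4.91% of all genes were called higher.

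The responses of the 2 tissues were compared directly with a treatment by tissue term over all 12 libraries, in which 3.60% of 14806 genes were called on adjusted p and size. Fgf21 and Klb passed the filter on low values only through their liver levels. Of the 5 members that passed it in both tissues 2 were called, Fgf1 and Fgfr1. For Fgf1 the liver response exceeded the duodenal one by 2.27 (SE 0.20, 95% interval 1.83 to 2.72, limma adjusted p = 2.22e-04). For Fgfr1 the difference was -1.24 (SE 0.20, 95% interval -1.69 to -0.80, adjusted p = 0.00813). For Fgf21 it was 4.01 (SE 0.95, 95% interval 1.91 to 6.10, adjusted p = 0.0455), which is given as a value and not counted, since its duodenal side sets a CORT group listed at 0 against Veh values above 0 only in the acinar-rich libraries.

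The other receptors gave no called difference between tissues. The liver response minus the duodenal one was -1.02 for Fgfr4 (95% interval -1.67 to -0.38, limma adjusted p = 0.0879), -0.75 for Fgfr3 (95% interval -1.34 to -0.15, adjusted p = 0.171), -0.43 for Fgfr2 (95% interval -1.19 to 0.34, adjusted p = 0.566) and -0.28 for Klb (95% interval -0.86 to 0.29, adjusted p = 0.610). All of these differences were negative, and those of Fgfr2 and Klb had intervals that include 0. Klb did not exceed 0.28 TPM in any duodenum library, so its value mostly repeats its liver response of -0.32.

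**Figure D5:**
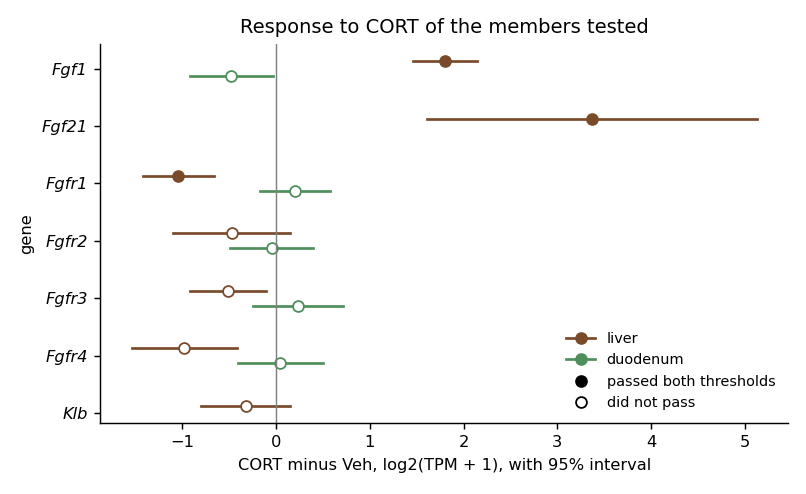
Response to CORT (CORT minus Veh on the log2(TPM + 1) scale) of the tested members in liver (brown) and duodenum (green), with 95% intervals from limma and filled points for called genes. Liver Fgf1 (1.80) and Fgf21 (3.37) lie to the right and liver Fgfr1 (-1.04) to the left, and each duodenal point is open.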

How the data were processed

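RNA of liver and duodenum was sequenced in 12 libraries, grouped by the sample labels. Reads were cleaned by the authors (SeqPrep, Sickle) and passed through HISAT2, StringTie and RSEM, with GRCm39 named in the submitters' processing notes, and DEGs were called by them with DESeq2. The deposited unit is TPM, unpooled, from which neither depth nor counting error can be known. Values were taken as log2(TPM + 1), genes averaging under 1 TPM in both Veh and CORT were dropped, and each tissue was fitted with limma 3.58.1 in R 4.3.3 (trend, treatment only; a second fit over both tissues held a treatment by tissue term), with Benjamini-Hochberg adjustment over all genes tested. Fits were tested on simulated data. The members and gene lists were chosen with earlier results of these data known. Named are all members, at most 4 called genes per list, tissue and direction, the 3 genes nearest to each called member, the 3 highest acinar markers, and Fkbp5, Tsc22d3, Cyp7a1, Cyp8b1, Nr0b2, Nr1h4, Slc10a2, Fabp6, Ppara, Atf4, Nr3c1, Spry4, Dusp6, Etv5 and Kl; others were chosen after their values were seen. Alternatives were a pseudocount of 0.1, no filter, a replicate block, leaving out each library, median-ratio scaling, no trend, unadjusted p, and, in the duodenum, removal of acinar genes and of Veh2 and Veh3. One gene of a list is not reported here by name.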

Additional observations from a re-analysis of the deposited data

Results flagged for a closer look

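For the members below the responses of liver and duodenum differed by the test of the difference itself, limma's treatment by tissue term (all values are liver response minus duodenal response on the log2 scale). Fgf1 differed by 2.275 (adjusted p = 2.22e-04), being higher in every CORT liver and lower in every CORT duodenum than in any Veh library of that tissue, and stayed called whichever of the 12 libraries was left out. Fgfr1 differed by -1.243 (adjusted p = 0.00813), and likewise stayed called whichever library was left out. Fgf21 differed by 4.005 (adjusted p = 0.0455), but it passed the filter on low values only through liver, and its duodenal side is a CORT group listed at 0 against Veh values of 2.12 and 0.20 TPM in the acinar-rich libraries. It was no longer called for 9 of the 12 libraries left out in turn (4.19 at most among these) or with a pseudocount of 0.1 (6.34, adjusted p = 0.0633).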

How the results depend on the processing

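Depth cannot be known from TPM, and 3 libraries a group limit the precision. Fgf1 in liver kept its direction and its call under every alternative (1.68 to 1.87). The number of members called in liver was 3, 1 with no filter on low values, and 1 to 4 with a library left out. Fgf21 in liver was not called, at 3.37, with no filter (adjusted p = 0.121) or no trend (0.0514), was 4.32 with a pseudocount of 0.1, and was 2.76 to 4.14 with a library left out. Fgfr1 in liver was not called, at -1.04, with no filter (adjusted p = 0.0585), was -1.43 with a pseudocount of 0.1, and was -1.11 to -0.94 with a library left out. Fgfr4 in liver was called at -1.06 with median-ratio scaling and at -0.98 with unadjusted p, and was -1.18 to -0.74 with a library left out. With Veh2 and Veh3 left out, duodenal Fgfr2 turned to 0.142, and with single libraries left out it ran from -0.195 to 0.0942 and duodenal Fgfr4 from -0.0349 to 0.125. The members with a called tissue difference numbered 3 with Fgf21 included, and 2 to 4 under the alternatives.

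Within a tissue, same-numbered Veh and CORT libraries did not deviate together (correlations of their deviations from -0.12 to 0.07). Differently numbered ones ran from -0.14 to 0.13. With 3 libraries a group this cannot exclude a shared batch, and pairing of liver with duodenum libraries was not tested. With the number as a block, Fgf1 (1.80) and Fgf21 were called in liver and Fgfr1 (-1.04, adjusted p = 0.0547) was not, and the count of members called was 2 in liver, 0 in the duodenum and 3 for the tissue difference. Calls over all genes fell under the block from 810 to 307 in liver, from 292 to 62 in the duodenum and from 533 to 211 for the tissue difference. They were 283 and 52 in liver and duodenum with no filter, 1808 and 1395 with unadjusted p, and 247 to 831 and 66 to 237 with a library left out, and 289 to 626 for the tissue difference. Per gene list, the number called with a library left out ran, in liver, from 1 to 3 for the factors acting on Fgf21, 3 to 9 for PPAR-alpha targets, 0 to 1 for ATF4 targets, 1 to 2 for signal transduction, 0 to 3 for FGF-ERK targets, and 0 to 2 for each bile acid list, and in the duodenum from 0 to 2, 3 to 4 and 0 to 1 for the first 3 of these lists and from 0 to 1 (FXR) or 0 to 2 (synthesis) for bile acids, with 0 in the others. The causes were not tested.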

Other observations

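Of the 3 genes nearest to Fgfr1 over the liver libraries, 2 were interferon-response genes. Both were picked for their likeness to Fgfr1, which was called lower, so their separation and adjusted p are only descriptions. The interferon response as a set was not tested. Irf7, a transcription factor of that response, was at 17.1, 20.7 and 20.2 TPM in Veh and 8.19, 11.1 and 10.3 TPM in CORT, without overlap (-0.91, limma adjusted p = 0.0199). Ifit1, an RNA-binding antiviral protein, was at 2.16, 2.53 and 2.04 TPM in Veh and 0.50, 0.70 and 0.58 TPM in CORT (-1.02, adjusted p = 0.0219). Slc10a2, the bile acid transporter best known from the ileum, was measurable in liver, at 8.06, 12.6 and 4.66 TPM in Veh and 19.9, 12.1 and 39.4 TPM in CORT, with overlap (1.33, SE 0.46, adjusted p = 0.128).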
